A study of Mus musculus with 12 samples.

Results

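The 10 genes described here are cytokines, receptors and signalling genes of the IL-6 family and of STAT3 signalling, together with a further receptor gene, Il4ra, and a further cytokine gene, Il34. They were taken by symbol from a table of 55487 mouse genes, and all 10 were in it. Bulk RNA-seq counts came from kidney cortex of mice of a mixed C57BL/6 background, in 12 libraries that form 4 groups of 3. Ctrl mice carried floxed alleles of ALR (gene symbol Gfer) without Cre, were labelled wild type, and had a sham operation. PT-KO mice carried the same floxed alleles with Ggt1-Cre, which is active mainly in proximal tubule cells, and also had a sham operation. Ctrl+I/R and PT-KO+I/R mice of the same genotypes had both kidneys clamped for 22 min and were studied after 24 h of reperfusion. The Cre thus targets mainly 1 segment of the nephron, while the RNA came from every cell of the cortex.

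IL-6, LIF and IL-11 are secreted cytokines that share the signalling receptor gp130, the product of Il6st. Each first meets its own receptor, such as the IL-6 receptor encoded by Il6ra, or pairs gp130 with a relative such as LIFR or the oncostatin M receptor encoded by Osmr. JAK kinases bound to gp130 then phosphorylate STAT3, which enters the nucleus and induces its targets, among them Socs3, whose product inhibits the receptor complex. In injured kidney this pathway is known for acute-phase genes such as Lcn2 and the fibrinogen chains. Il4ra encodes the receptor chain shared by IL-4 and IL-13, which signals mainly through STAT6, and Il34 encodes a ligand of CSF1R, the growth factor receptor of macrophages.

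Total counts per library ran from 12165089 to 23123693. Ctrl libraries 1 and 2 carried Xist and no Y-linked counts, and the other 10 libraries carried Y-linked counts, so both sexes occurred only in Ctrl. Gfer levels, in CPM (counts scaled by TMM for library size and composition), were 12.7, 11.3 and 14.5 in Ctrl, 10, 17.1 and 15.1 in PT-KO, 15.3, 20 and 17.7 in Ctrl+I/R, and 21.3, 22.7 and 21.4 in PT-KO+I/R. Whole-gene counts of Gfer therefore did not separate the genotypes in the direction of a deletion, with log2 differences of 0.13 without I/R (adjusted p = 0.761) and 0.32 after I/R (adjusted p = 0.0723). The groups are named by their labels, and every genotype difference given here is between libraries labelled PT-KO and libraries labelled Ctrl. Proximal tubule markers summed to between 12300 and 14000 CPM in the 6 uninjured libraries, so the tubule cells of the labelled tissue were present. Ctrl+I/R library 4 had the lowest level of its group for all 10 genes, though next to library 1 for Il6st. Its summed tubular injury markers were 556 CPM, the lowest of the injured libraries, which reached 6260 CPM. In bulk tissue, fewer cells of a type and less RNA per cell cannot be told apart.

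The bases upstream of the genes that moved most with I/R are shown because their letters hold a match to at least 1 of a STAT, a kappaB and an AP-1 motif. RefSeq promoter windows (build GRCm38.p6, the 250 bases before each gene start) were found for 9 of the 10 genes, in 10 windows. They were searched on both strands for the STAT motif TTCNNNGAA, the kappaB motif and the AP-1 motif TGANTCA, and matches are in capitals. No match overlapped another. Il6 lies at chr5:30012864-30013113 on the plus strand, Lif at chr11:4257318-4257567 on the plus strand, the second of 2 Il11 windows at chr7:4778142-4778391 on the minus strand, and Socs3 at chr11:117969367-117969616 on the minus strand. The Socs3 and Il11 windows lie inside the longer gene spans of GENCODE M21.
Il6: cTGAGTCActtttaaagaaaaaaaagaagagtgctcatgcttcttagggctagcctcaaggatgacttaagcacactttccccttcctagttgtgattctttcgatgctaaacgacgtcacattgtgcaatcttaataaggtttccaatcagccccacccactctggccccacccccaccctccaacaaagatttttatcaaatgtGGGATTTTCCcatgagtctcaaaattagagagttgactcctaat
Lif: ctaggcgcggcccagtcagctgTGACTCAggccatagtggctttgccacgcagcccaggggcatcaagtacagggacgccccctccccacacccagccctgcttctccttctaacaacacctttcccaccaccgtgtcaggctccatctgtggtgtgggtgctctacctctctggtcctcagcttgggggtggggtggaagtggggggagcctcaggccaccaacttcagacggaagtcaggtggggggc
Il11: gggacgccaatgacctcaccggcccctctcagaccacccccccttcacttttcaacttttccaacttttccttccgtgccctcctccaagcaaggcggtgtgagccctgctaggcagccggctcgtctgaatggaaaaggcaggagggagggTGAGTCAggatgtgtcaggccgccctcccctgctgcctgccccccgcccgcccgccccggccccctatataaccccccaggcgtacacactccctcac
Socs3: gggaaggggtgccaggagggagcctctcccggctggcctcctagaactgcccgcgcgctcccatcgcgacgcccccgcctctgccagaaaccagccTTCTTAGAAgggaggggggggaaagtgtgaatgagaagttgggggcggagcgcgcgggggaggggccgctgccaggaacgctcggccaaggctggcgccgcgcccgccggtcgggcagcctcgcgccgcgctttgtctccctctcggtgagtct
Only the Socs3 window held the STAT motif, as TTCTTAGAA starting 154 bases before the gene start, and 7.02% of 32851 promoters of that length hold it. Only the Il6 window held the kappaB motif, as GGGATTTTCC starting 44 bases before the gene start, against 0.356% of all promoters. The AP-1 motif was in 3 windows, those of Il6 (TGAGTCA, 249 bases before the start), Lif (TGACTCA, 228 bases) and Il11 (TGAGTCA, 98 bases), against 6.75% of all promoters. A match is a description of these letters and not a site.

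In control kidneys, I/R raised the transducer Stat3, the inhibitor Socs3, the cytokines Lif and Il34, and the receptors Osmr and Il4ra. These were 6 of the 8 genes that passed the low-count filter, where 19.4% of 15567 tested genes were called, 11.4% of them as higher (edgeR quasi-likelihood test, Benjamini-Hochberg adjusted p under 0.05). The median log2 change of the 8 was 1.97, beside -0.01 over all tested genes. For 9 of the 10 genes every Ctrl+I/R library was above every Ctrl library, where 21.8% of tested genes were higher without overlap. Leaving out Ctrl library 1 or Ctrl library 2 left 2 calls each, Stat3 and Socs3, while omitting Ctrl+I/R library 1 left 4 and omitting Ctrl+I/R library 4 gave 8. Over all genes, the same libraries moved the number of calls from 3019 to 379, 413, 833 and 4061.

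In kidneys labelled PT-KO, I/R raised 9 of the 10 genes and lowered Il6st, although the Il6st call was lost in 4 of 13 alternatives. All 10 were called, where 65.5% of 15155 tested genes were called, 32.9% as higher and 32.7% as lower. The median log2 change was 3.33, beside 0.01 over all genes, and stayed 3.33 with Il6 set to its bound. Again the libraries did not overlap for any of the 10 genes, while 34.8% of tested genes were higher and 35.9% lower without overlap.

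With both genotypes injured, Il6ra, Stat3, Il4ra and Il34 were higher after I/R in PT-KO than in controls (Ctrl+I/R, the injured controls), and the cytokines Il6, Lif and Il11 did not pass the test. The 4 calls of 10 stand beside 46.9% of 15281 tested genes that were called, 22.5% as higher, so the share was close to that of all genes. The median log2 difference was 0.9, beside 0 over all genes. All PT-KO+I/R libraries lay above the injured controls for these 4 genes and below them for Il6st, where 28.6% of tested genes were higher and 30.1% lower without overlap. Scaled by total counts in place of TMM, which moved the median of all genes by -0.21, Il6st was called lower as well, giving 4 higher and 1 lower. Without Ctrl+I/R library 2 the count was 7, with Il6, Osmr and Socs3 added, and the calls over all genes went from 7169 to 7509.

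Without I/R, none of the 7 tested genes differed between PT-KO and Ctrl by edgeR's quasi-likelihood test with Benjamini-Hochberg adjustment, where 0% of 15291 tested genes were called. At an unadjusted p under 0.05, edgeR had 3 of the 7 (Il34, Il6st and Il6ra) and 2573 of all genes, and DESeq2 called 0 of the 7 and 444 of all genes after adjustment. Libraries did not overlap for Il34 and Il6st, higher in PT-KO, and for Socs3, lower in PT-KO, where 10.1% of tested genes were higher and 10.9% lower without overlap. Without Ctrl library 3, Il34 and Il6st were both called, with 1930 calls over all genes. Both remaining Ctrl libraries then carry Xist and the PT-KO libraries do not, so sex and genotype cannot be told apart in that fit.

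The effect of I/R itself differed between genotypes for 4 of the 10 genes in a fit to all 12 libraries. Of 16168 tested genes, 30.6% were called, 14.3% as higher and 16.4% as lower, and nothing particular to the 10 genes is read from this count. The effect was larger in PT-KO for Il6ra, Stat3 and Il4ra, and ran the other way for Il6st. With sex as a covariate 2 of the 4 were called, Il6ra and Stat3. An exact permutation test of 3 libraries against 3 cannot give a p under 0.1, so each call depends on how edgeR models the counts. It gives that p whenever the libraries of 2 groups do not overlap.

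**Figure D1:**
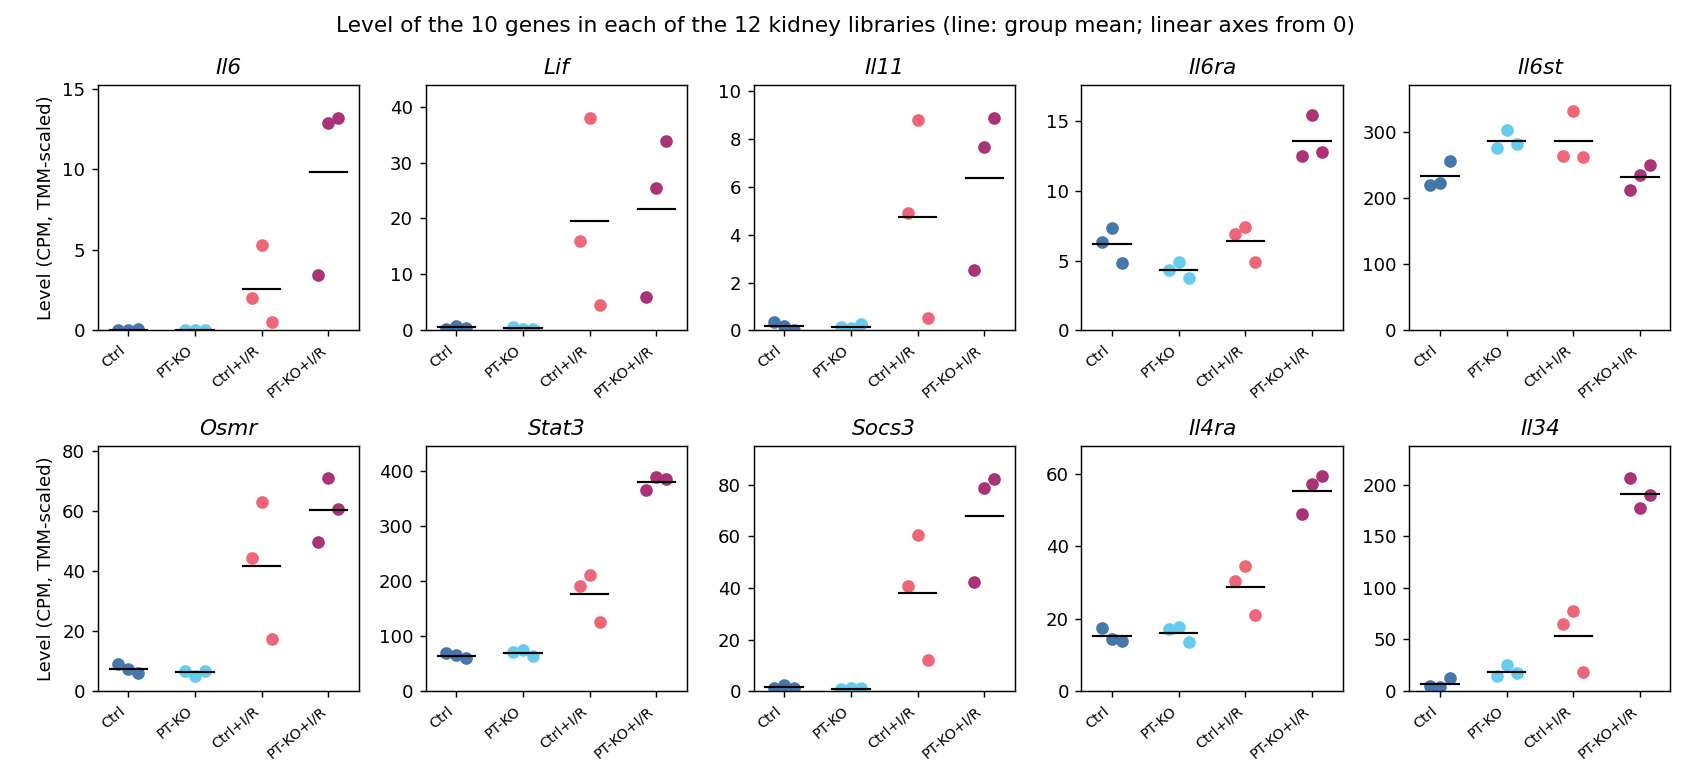
Level of each of the 10 genes in CPM (linear axes from 0) in the 12 libraries, by group, with 1 point per library and a line at the group mean. The 3 PT-KO+I/R libraries stand above all others for Il6ra, Stat3, Il4ra and Il34, whereas they overlap Ctrl+I/R for Il6, Lif, Il11, Osmr and Socs3.

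Among the ligands, Il6 was almost undetected before injury. Its level was 0, 0 and 0.0557 CPM in Ctrl and 0 in each PT-KO library. After I/R it was 2.01, 5.28 and 0.51 CPM in Ctrl+I/R and 3.44, 12.9 and 13.2 CPM in PT-KO+I/R. Every injured library was above every uninjured one, and the lowest PT-KO+I/R library lay inside the range of Ctrl+I/R. In controls 154 counts after I/R stood against 1 before, a ratio of 146 after scaling (exact 95% interval 25.9 to 5820, counting error only). In PT-KO, 540 counts stood against 0, so that Il6 was at least 182-fold higher with a floor of 3 counts over the group. PT-KO+I/R differed from injured controls by a log2 value of 1.94 ± 0.72 (SE), with an edgeR adjusted p of 0.0566. That value changed sides of the threshold in 5 of 12 alternatives, for example to an adjusted p of 0.0164 without the low-count filter.

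Lif, whose product signals through LIFR and gp130, rose with injury in both genotypes, to means of 19.5 ± 17 CPM (SD, n = 3) in Ctrl+I/R and 21.7 ± 14.3 CPM (SD, n = 3) in PT-KO+I/R. It was 0.3, 0.853 and 0.501 CPM in Ctrl and 0.633, 0.216 and 0.247 CPM in PT-KO. After I/R it reached 16, 38 and 4.53 CPM in Ctrl+I/R and 5.97, 25.4 and 33.8 CPM in PT-KO+I/R. The injured libraries all lay above the uninjured ones, and those of the 2 genotypes interleaved. The log2 change with I/R was 5.16 ± 0.85 in controls (edgeR adjusted p = 0.0127) and 5.92 in PT-KO. The difference between the injured groups was 0.18 ± 0.74 (edgeR adjusted p = 0.859), and its sign turned in 3 of 13 alternatives, so these libraries gave it no direction. In controls the call was lost when Ctrl library 1 or Ctrl library 2 was left out, where the adjusted p was over 0.05 and reached 0.0613.

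Il11, the fibrosis-associated member of the family, followed the same course at lower levels. It was 0.35, 0.183 and 0 CPM in Ctrl, 0.127, 0.108 and 0.247 CPM in PT-KO, 4.91, 8.78 and 0.51 CPM in Ctrl+I/R, and 2.52, 7.67 and 8.89 CPM in PT-KO+I/R. Ctrl+I/R library 4 was barely above Ctrl, and Il11 did not pass the low-count filter in that comparison. Counts rose from 10 over the 3 Ctrl libraries to 286 over the 3 Ctrl+I/R libraries. In PT-KO the log2 change was 5.29. Against injured controls PT-KO+I/R differed by 0.44 ± 0.76 (edgeR adjusted p = 0.66).

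Among the receptors, Il6ra was the gene whose response to I/R differed most clearly between genotypes. It was 6.31, 7.31 and 4.84 CPM in Ctrl and 6.88, 7.42 and 4.91 CPM in Ctrl+I/R, but 4.31, 4.91 and 3.76 CPM in PT-KO and 12.5, 15.4 and 12.8 CPM in PT-KO+I/R. The Ctrl and Ctrl+I/R libraries overlapped almost completely, while each PT-KO+I/R library was above all 9 others. The log2 change with I/R was 0.06 ± 0.24 in controls (edgeR adjusted p = 0.868) and 1.66 in PT-KO. The interaction was 1.61 ± 0.29 (edgeR adjusted p = 0.00176) and was called in each of 18 alternatives, where its adjusted p was at most 0.02. PT-KO+I/R stood above injured controls by 1.09 ± 0.19 (edgeR adjusted p = 0.00301), a call lost with the replicate block (adjusted p = 0.0683). The exons of Il6ra share 242 bases with an antisense gene, Gm42809, whose reads cannot be told apart without strand.

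Il6st, the shared transducer gp130, was abundant in every group and moved little. Its level was 219, 223 and 256 CPM in Ctrl, 276, 302 and 282 CPM in PT-KO, 263, 331 and 262 CPM in Ctrl+I/R, and 212, 235 and 250 CPM in PT-KO+I/R. It stood lowest in PT-KO+I/R and in Ctrl. All PT-KO+I/R libraries were below the injured controls, the nearest at 250 against 262 CPM. The log2 change with I/R was 0.29 ± 0.14 in controls (edgeR adjusted p = 0.162) and -0.29 ± 0.09 in PT-KO (edgeR adjusted p = 0.0178). The PT-KO call was lost with the replicate block, with 1 fit to all 12 libraries, and when PT-KO library 2 or PT-KO+I/R library 2 was left out, with edgeR adjusted p up to 0.0584. The interaction of -0.57 ± 0.16 had an edgeR adjusted p of 0.0212, which was 0.126 with sex as a covariate. The call was also lost with the replicate block and when Ctrl library 1, Ctrl library 2 or PT-KO library 2 was left out, with values of all alternatives between -0.67 and -0.44.

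Osmr, the oncostatin M receptor chain, rose in both genotypes. It was 8.96, 7.25 and 5.9 CPM in Ctrl, 6.78, 5.12 and 6.73 CPM in PT-KO, 44.4, 62.9 and 17.2 CPM in Ctrl+I/R, and 49.7, 70.9 and 60.4 CPM in PT-KO+I/R. Injured libraries were separate from uninjured ones, and the injured groups overlapped. The log2 change was 2.49 ± 0.44 in controls (edgeR adjusted p = 0.0147) and 3.3 in PT-KO, and the difference between the injured groups was 0.55 ± 0.39 (edgeR adjusted p = 0.267). Its ligand gene Osm had 19 counts over Ctrl+I/R against 2 over Ctrl, and 28 over PT-KO+I/R against 3 over PT-KO.

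Stat3, the transcription factor downstream of gp130, rose in steps from the uninjured groups to Ctrl+I/R and on to PT-KO+I/R. It was 68.7, 64.8 and 60.6 CPM in Ctrl, 70.5, 74.4 and 64.2 CPM in PT-KO, 191, 211 and 125 CPM in Ctrl+I/R, and 365, 389 and 386 CPM in PT-KO+I/R. The 3 levels did not overlap, and the PT-KO+I/R mean was 380 ± 12.8 CPM (SD, n = 3). The log2 change with I/R was 1.44 ± 0.2 in controls (edgeR adjusted p = 0.00802) and 2.46 in PT-KO. PT-KO+I/R exceeded injured controls by 1.13 ± 0.19 (edgeR adjusted p = 0.00242), and the interaction was 1.03 ± 0.23 (edgeR adjusted p = 0.00548). All of these calls held in every alternative run, with adjusted p at most 0.0466 between the injured groups. Stat3 and Stat5a share 72 exon bases on opposite strands. The counts measure Stat3 mRNA and not its phosphorylation.

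Socs3, the feedback inhibitor induced by STAT3, had the largest fitted change with I/R in PT-KO apart from Il6. It was 1.15, 2.56 and 1.17 CPM in Ctrl, 0.823, 1.08 and 1.05 CPM in PT-KO, 40.9, 60.5 and 12.2 CPM in Ctrl+I/R, and 42.4, 78.6 and 82.4 CPM in PT-KO+I/R. The lowest PT-KO+I/R library lay within the range of Ctrl+I/R. The log2 change was 4.56 ± 0.64 in controls (edgeR adjusted p = 0.00866) and 6.11 in PT-KO. The difference between the injured groups was 0.85 ± 0.49 (edgeR adjusted p = 0.188) and the interaction 1.55 ± 0.85 (edgeR adjusted p = 0.184). The difference between the injured groups was called in 1 of 13 alternatives, when Ctrl+I/R library 2 was left out (edgeR adjusted p = 0.0454).

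Il4ra was 17.3, 14.4 and 13.9 CPM in Ctrl and 17.2, 17.6 and 13.6 CPM in PT-KO. After I/R it was 30.5, 34.5 and 21 CPM in Ctrl+I/R and 49, 57.2 and 59.3 CPM in PT-KO+I/R. The uninjured groups overlapped, and the injured groups stood above them in 2 separate steps. The log2 change was 0.92 ± 0.19 in controls (edgeR adjusted p = 0.0228) and 1.79 in PT-KO, and the difference between the injured groups was 0.95 ± 0.18 (edgeR adjusted p = 0.00395), a call lost with the replicate block (adjusted p = 0.0639). The interaction was 0.88 ± 0.25 (edgeR adjusted p = 0.0187), and 0.74 with an adjusted p of 0.106 with sex as a covariate. The control call was lost without any single Ctrl library and without Ctrl+I/R library 1, with adjusted p up to 0.0846. Il4ra shares 571 exon bases with the antisense gene Gm44876.

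Il34 had the largest called difference between the injured groups. It was 4.86, 4.08 and 12.9 CPM in Ctrl and 14.2, 25.2 and 17.2 CPM in PT-KO. Ctrl libraries 1 and 2, which carry Xist, were the lowest of all. After I/R it was 65.1, 77.3 and 18.6 CPM in Ctrl+I/R and 206, 177 and 190 CPM in PT-KO+I/R. The lowest Ctrl+I/R library, number 4, lay inside the range of PT-KO without injury, and the PT-KO+I/R libraries were above all others. The log2 change with I/R was 2.89 ± 0.62 in controls (edgeR adjusted p = 0.0233) and 3.35 in PT-KO. With sex as a covariate the control value was 2.07 with an adjusted p of 0.0523. PT-KO+I/R exceeded injured controls by 1.84 ± 0.43 (edgeR adjusted p = 0.01), and the value for PT-KO against Ctrl was 1.37 ± 0.42 (edgeR adjusted p = 0.212). The latter ran from 0.56 with sex as a covariate to 2.06 with the replicate block or when Ctrl library 3 was left out, and it was called in 3 of 13 alternatives. The interaction was 0.47 ± 0.67 (edgeR adjusted p = 0.626), so the data gave no call that the I/R response of Il34 differed between genotypes.

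**Figure D2:**
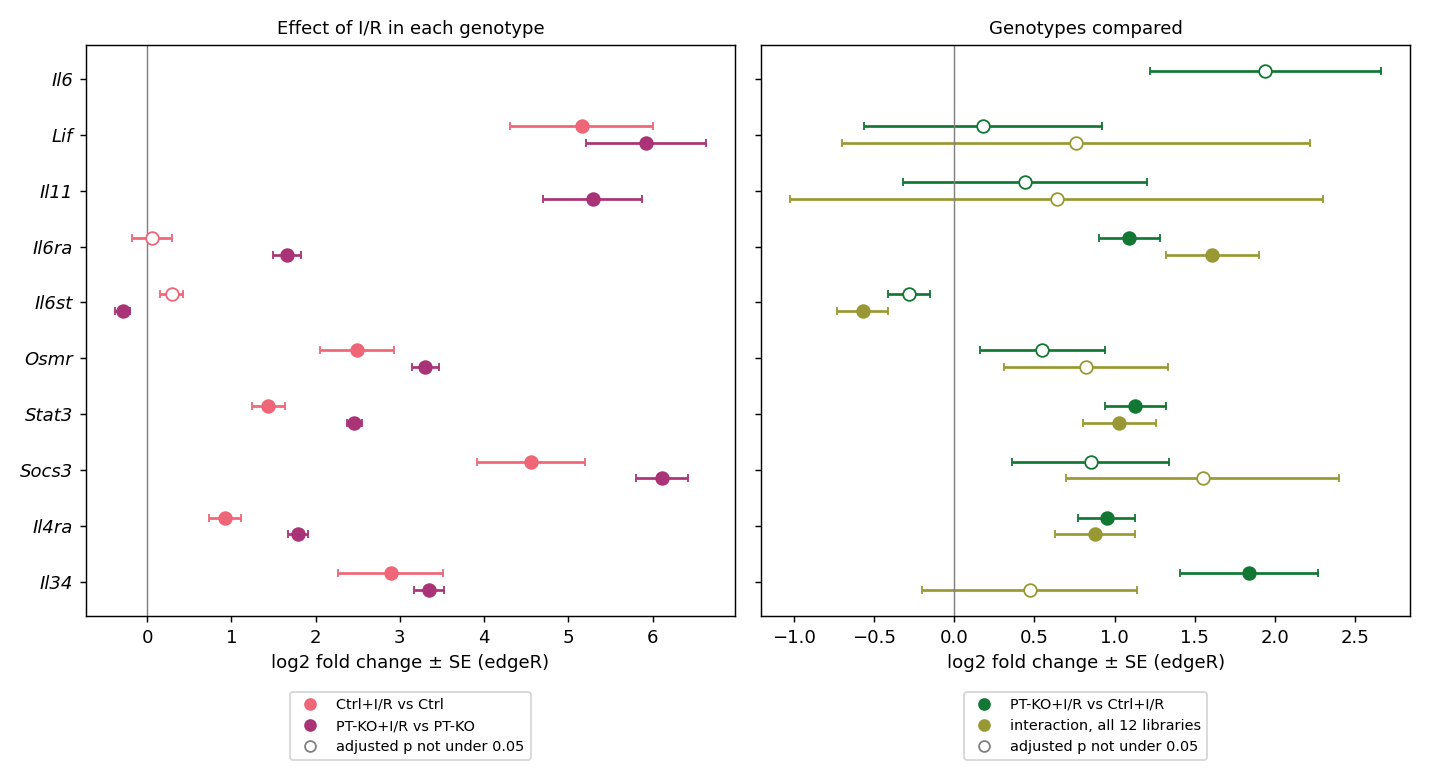
Fitted log2 changes (points, with SE bars) of the 10 genes, with filled points for an edgeR adjusted p under 0.05. The left panel sets the I/R effect in Ctrl beside that in PT-KO, and the right panel gives the difference of the injured genotypes and the interaction. Only Il6ra and Il6st lack a called rise in controls among the tested genes, and Il6 is left out where a group had 0 counts or near it.

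Levels of different genes can be compared only per length. On the scale of CPM per kilobase of merged exons, the order of group means in Ctrl ran from Il6st at 21 ± 1.81 (SD, n = 3), through Stat3 at 6.79 ± 0.425 and Il34 at 3.71 ± 2.48, to Il4ra at 2.53 ± 0.304, and the SDs of Il34 and Il4ra overlapped. Il6ra at 0.712, Osmr at 0.608 and Socs3 at 0.562 were close together, and Lif at 0.127, Il11 at 0.0854 and Il6 at 0.00764 were lowest. In PT-KO+I/R the order was led by Il34 at 97.3 ± 7.43, then Stat3 at 39.9 ± 1.34, Socs3 at 23.5 ± 7.63 and Il6st at 20.9 ± 1.73. Socs3 and Il6st did not differ beyond their SDs there. Lif at 4.99 ± 3.28, Osmr at 4.98 ± 0.873, Il6 at 4.07 ± 2.29 and Il11 at 3.06 ± 1.62 could not be ordered. Il6ra had the lowest mean, 1.57 ± 0.183, but in library 2 Lif, Il6 and Il11 lay below it.

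Other ligands and receptors of the family were counted from lists of their own. Of 9 other ligands only 3 had enough counts in each I/R comparison. With I/R, 2 of the 3 were called higher in controls and 2 in PT-KO, beside 11.4% and 32.9% of all tested genes. Between the injured groups 1 was called higher and 1 lower, beside 22.5% and 24.4%, with a median log2 difference of -0.49 beside 0. Clcf1, a ligand of the CNTF receptor, was called higher with I/R in both genotypes, by log2 values of 2.35 and 4.49, and stood higher after I/R in PT-KO than in controls by 1.54 (edgeR adjusted p = 0.0378). The last call was not made by DESeq2, with total counts, or when Ctrl+I/R library 4 was left out. Ctf1, encoding cardiotrophin, was called lower with I/R in PT-KO (-1.07).

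Of 6 other receptors of the family, the 4 that were tested were all called lower in PT-KO+I/R than in injured controls, where 24.4% of tested genes were called lower, with a median log2 difference of -1.31 beside 0 over all genes. Lifr, the LIF receptor, was 74.1, 89.9 and 72.2 CPM in Ctrl+I/R and 48, 57.3 and 51.5 CPM in PT-KO+I/R, a log2 difference of -0.58 (edgeR adjusted p = 0.00528). Il11ra1, the IL-11 receptor, was 28.3, 27 and 36.3 CPM against 23.4, 21.6 and 18.4 CPM, a difference of -0.52. Cntfr, the CNTF receptor that Clcf1 acts on, differed by -2.04, and Il27ra, found mainly on lymphocytes, by -3.81. The groups did not overlap for any of the 4, where 30.1% of tested genes were lower without overlap. With I/R in PT-KO, 3 of 3 tested were called lower (Cntfr -3.01, Lifr -0.86, Il11ra1 -0.82), beside 32.7% of all tested genes, and in controls Cntfr was called lower (-1.12) and Il27ra higher (1.23). The interaction was called lower for Il27ra (-3.74), Cntfr (-1.88) and Lifr (-0.49), beside 16.4% of all tested genes, and without I/R 0 of 4 differed.

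**Figure D3:**
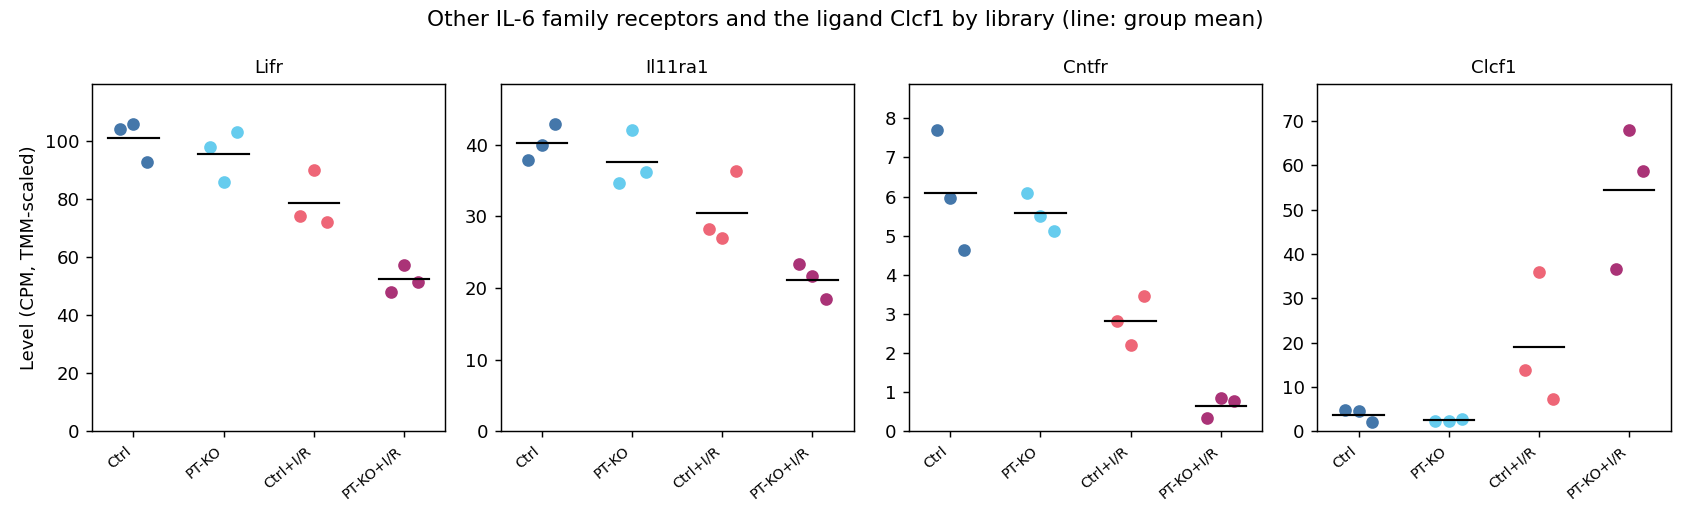
Levels of 3 other receptors of the family and of the ligand Clcf1 in CPM (linear axes from 0), 1 point per library and a line at the group mean. The PT-KO+I/R libraries are the lowest for Lifr, Il11ra1 and Cntfr and the highest for Clcf1, where 1 of them lies next to Ctrl+I/R library 2.

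Among 9 tested JAK kinases and other STATs, the calls ran both ways. With I/R in controls Jak3 (0.9) and Jak1 (0.55) were called higher, and 0 lower. With I/R in PT-KO, 4 were higher, namely Jak1 (0.78), Jak3 (0.61), Stat6 (0.37) and Jak2 (0.34), and 3 were lower, among them Stat5a (-0.89) and Stat5b (-0.83). Between the injured groups 4 were called lower, among them Stat2 (-0.85), Jak3 (-0.55) and Stat5a (-0.42), and Jak2 (0.44) was called higher. The median of the list was -0.26, beside 0 over all genes, of which 22.5% were called higher and 24.4% lower (with I/R, 11.4% and 7.97% in controls and 32.9% and 32.7% in PT-KO). The interaction was called higher for Jak2 (0.69) and lower for 2 genes, among them Stat5b (-0.44), beside 14.3% and 16.4% of all tested genes, and without I/R 0 of 9 differed.

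Apart from Socs3, negative regulators of the pathway moved less. With I/R in controls 1 of 15 was called, the phosphatase gene Ptpn2 (0.68). With I/R in PT-KO, 6 of 14 were called higher, led by Socs6 (1), Ptpn2 (0.97), Socs2 (0.92) and Ptpn11 (0.65), and 4 lower, Ptpn6 (-0.83), Socs5 (-0.55), Pias2 (-0.43) and Pias1 (-0.26). Comparing injured kidneys, 5 of 15 were higher, led by Socs6 (0.95), Ptpn11 (0.59), Socs7 (0.38) and Socs4 (0.36), and 3 lower, Cish (-1.18), Ptpn6 (-0.9) and Socs5 (-0.54). Over all tested genes, 11.4% were called higher and 7.97% lower with I/R in controls, 32.9% and 32.7% with I/R in PT-KO, and 22.5% and 24.4% between the injured groups, and nothing particular to the list is read from these counts. With total counts the split was 2 higher and 5 lower. Socs6 was 31.8, 32.3 and 28.7 CPM in Ctrl+I/R and 54, 57.5 and 66.4 CPM in PT-KO+I/R, and its interaction was 1.1 (edgeR adjusted p = 0.000244). The interaction was also called for Ptpn11 (0.53) and Ptpn6 (-0.99), the latter encoding a phosphatase mainly of blood cells. Without I/R 0 of 14 differed.

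Most of the tested STAT3 target and acute-phase genes rose with I/R. In controls 15 of 23 tested were called higher, 1 lower and 7 neither, where 11.4% of all tested genes were called higher and 7.97% lower, with a median log2 change of 2.28 beside -0.01 over all genes. In PT-KO 21 of 23 were higher and 2 lower, where the shares of all tested genes were 32.9% and 32.7%, with a median of 3.99 beside 0.01. Both medians were the same with Saa1 set to its bound. Comparing injured kidneys, 14 of 24 were higher in PT-KO+I/R and 2 lower, beside 22.5% and 24.4% of all tested genes, with a median of 1.4 beside 0. The interaction was called higher for 10 of 24 and lower for 2, beside 14.3% and 16.4%, with a median of 1.41 beside -0.02, and without I/R 0 of 18 differed. With Ctrl library 1, 2 or 3 left out, the number higher in controls was 11, 10 and 11, and with Ctrl+I/R library 4 left out it was 18. For the comparison of injured kidneys, leaving out that library changed 14 higher and 2 lower to 12 higher and 5 lower. The list includes Lcn2, which is also a tubular injury marker.

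In these targets the named genes gave large values. Lcn2, encoding the iron-carrier binding protein NGAL, was 0.801, 1.83 and 0.835 CPM in Ctrl, 241, 457 and 163 CPM in Ctrl+I/R, and 1520, 1270 and 1780 CPM in PT-KO+I/R. Its log2 change was 7.97 in controls and 10.04 in PT-KO, and 2.43 between the injured groups (edgeR adjusted p = 0.00147). Fgb, the fibrinogen beta chain, changed by 6.46 and 9.65 with I/R and by 2.21 between the injured groups, and Serpina3n, a serine protease inhibitor, by 2.86 between the injured groups. All 3 fibrinogen genes went the same way, with Fga at 2.09 and Fgg at 2.00 between the injured groups. Saa1, serum amyloid A, had 0 counts in the uninjured groups and was at least 107-fold higher after I/R in controls and at least 104-fold in PT-KO, with a floor of 3 counts over the group. Saa1 and Saa2 are near-identical copies, so reads may have been split between them. Timp1, a metalloproteinase inhibitor, changed by 7.86 in controls, and in PT-KO 1063 counts stood against 1, a ratio of 1070 (exact 95% interval 192 to 42400).

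The I/R effect on several targets differed between genotypes. Cebpd, a transcription factor of the acute-phase response, was 20, 26.5 and 12 CPM in Ctrl+I/R and 100, 88.1 and 108 CPM in PT-KO+I/R, with an interaction of 3.31 (edgeR adjusted p = 0.0091). Pim3, a survival kinase, was 71.2, 58.9 and 141 CPM in Ctrl+I/R, 434, 344 and 393 CPM in PT-KO+I/R, and between 130 and 173 CPM in Ctrl. Its interaction was 2.27 (edgeR adjusted p = 0.000941), while its change in controls was -0.78 (edgeR adjusted p = 0.114). Fgb had an interaction of 3.19 and Lcn2 of 2.08. Ccnd1, encoding cyclin D1, went the other way, lower in PT-KO+I/R than in injured controls by a log2 value of -1.23 and with an interaction of -1.37 (edgeR adjusted p = 0.000422). Vegfa, the vascular growth factor, was called lower with I/R in controls (-0.6) and in PT-KO (-1.29), and lower again when injured kidneys were compared (-0.81).

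**Figure D4:**
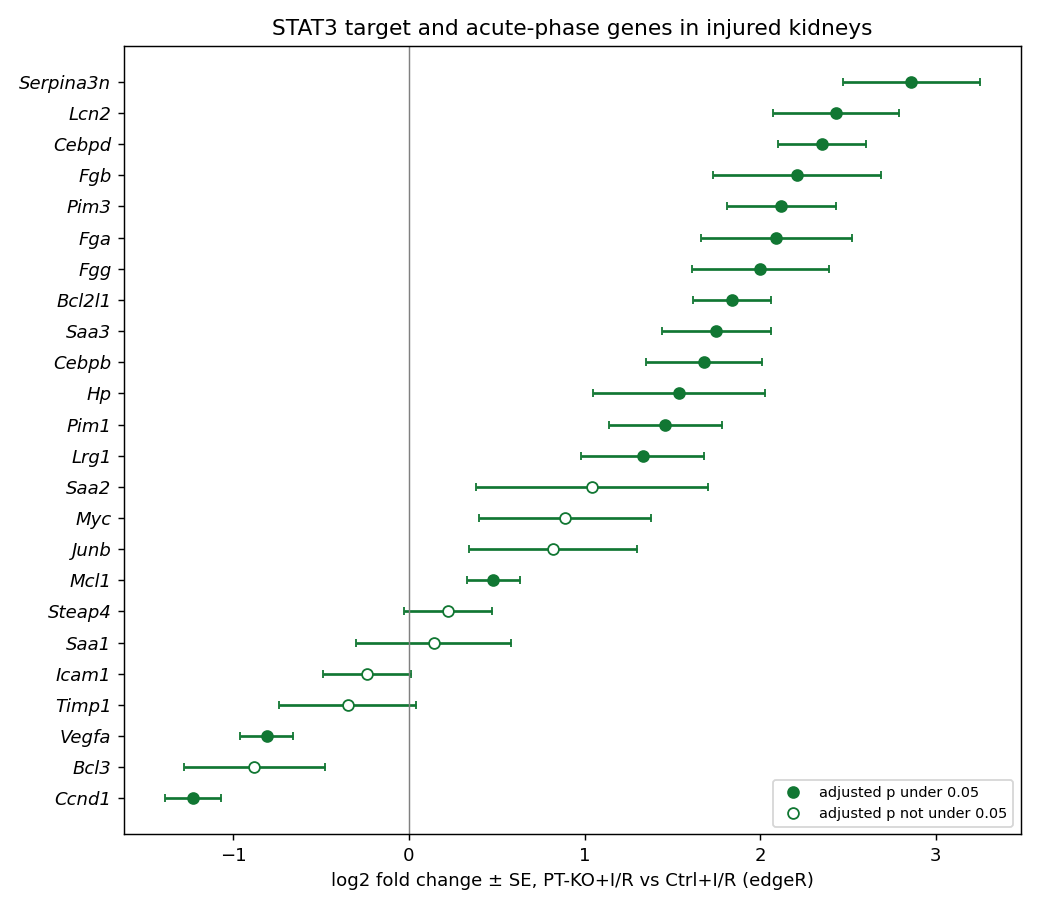
Log2 difference with SE (PT-KO+I/R minus injured controls) for the 24 tested STAT3 target and acute-phase genes, ordered by size, with filled points for an edgeR adjusted p under 0.05. Serpina3n at 2.86 and Lcn2 at 2.43 lead, and Ccnd1 at -1.23 is the lowest.

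Among the other genes around Il4ra, Il4 and Il13 are listed at 0 counts in all 12 libraries, which at these depths allows up to 3 counts over a library. Il13ra1, the partner chain that binds IL-13, was called higher with I/R in both genotypes (0.75 and 0.81) and differed by 0.24 between the injured groups (edgeR adjusted p = 0.351). Il2rg, the partner chain found on leukocytes, was lower in PT-KO+I/R than in injured controls (-2.02, edgeR adjusted p = 0.00341), and Irs2, an adaptor of this receptor and of the insulin receptor, was higher (1.58, edgeR adjusted p = 0.000162). Chil3 rose with I/R by 4.57 in controls, and in PT-KO 388 counts stood against 3. Of 6 tested genes of the list, 1 was higher and 1 lower between the injured groups, beside 22.5% and 24.4% of all tested genes, with a median of -0.61 beside 0.

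The partners of Il34 differed from it. Csf1, the other CSF1R ligand, rose with I/R in both genotypes (1.53 and 0.97) and was lower in PT-KO+I/R, at 13.9, 19.3 and 15.9 CPM, than in Ctrl+I/R, at 28.7, 43.1 and 18.6 CPM (-0.86, edgeR adjusted p = 0.0357). The groups overlapped at one library. Csf1r was 60.1, 63.3 and 46.1 CPM in Ctrl, 40.6, 24.6 and 41.5 CPM in Ctrl+I/R and 12.8, 14.8 and 11.8 CPM in PT-KO+I/R. Its log2 difference between the injured groups was -1.42 (edgeR adjusted p = 0.00171) and its interaction was -1.29 (edgeR adjusted p = 0.00343). The 2 CSF1R ligand genes and the receptor gene therefore ran in different directions, Il34 higher and Csf1 and Csf1r lower in PT-KO+I/R. Sdc1, a further IL-34 binding partner, rose with I/R in both genotypes (1.29 and 1.47).

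**Figure D5:**
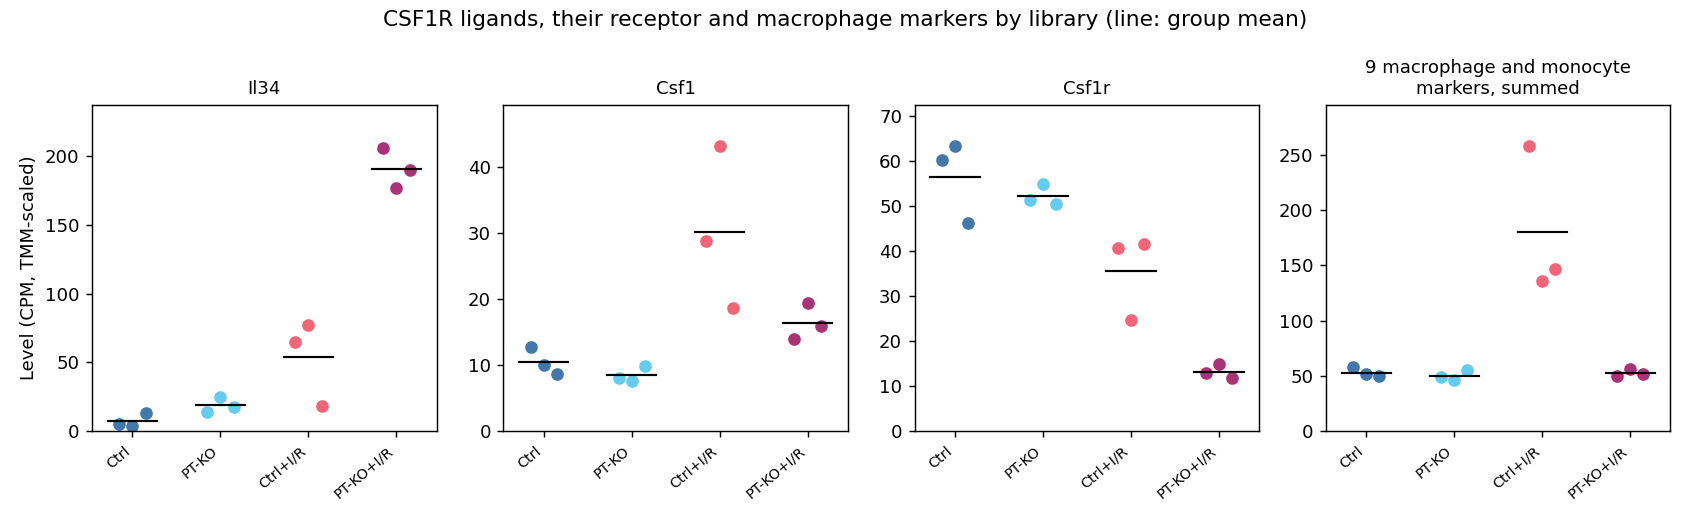
Levels of Il34, Csf1, Csf1r and the sum of 9 macrophage and monocyte markers in CPM (linear axes from 0), 1 point per library and a line at the group mean. In PT-KO+I/R, Il34 lies between 177 and 206 CPM while the marker sum lies between 49.8 and 56.2 CPM, against 136 to 258 CPM in Ctrl+I/R.

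Markers of other cells moved with the same groups, and their part in the results was not tested. Of 9 macrophage and monocyte markers, 9 were called higher with I/R in controls, where 11.4% of all tested genes were. With I/R in PT-KO, 2 of the 9 were called higher and 6 lower, beside 32.9% and 32.7% of all tested genes. Against injured controls, 7 were lower and 1 higher in PT-KO+I/R, beside 24.4% and 22.5% of all tested genes. Neutrophil markers summed to 9.89 to 43.2 CPM in Ctrl+I/R and 55.6 to 87.9 CPM in PT-KO+I/R, and 4 of 6 tested were called higher there, beside the same 22.5%. In the same order of groups, proximal tubule markers summed to 3570 to 8740 CPM and 2180 to 2710 CPM, and tubular injury markers to 556 to 2620 CPM and 4710 to 6260 CPM. T cell markers summed to 7.27 to 18.2 CPM and 0.756 to 2.56 CPM, B cell markers to 1.08 to 2.82 CPM and 0 to 0.355 CPM, and fibroblast and pericyte markers to 347 to 424 CPM and 108 to 186 CPM. Of the 5 fibroblast and pericyte markers, 2 were called lower between the injured groups, the collagen genes Col1a1 (-3.47) and Col1a2 (-2.53), and 3 were not called. Endothelial markers summed to 286 to 317 CPM and 351 to 357 CPM, and collecting duct markers to 56.4 to 211 CPM and 52.3 to 110 CPM. Thick ascending limb and distal tubule markers summed to 1680 to 4160 CPM and 2130 to 2560 CPM, a sum carried by Umod (-0.1, not called), while the other 3 of 4 were called lower, among them Slc12a1 (-3.4) and Kcnj1 (-2.38). Between the injured groups, Il6ra, Stat3, Il4ra and Il34 were thus higher in PT-KO+I/R. Summed neutrophil and injury markers were higher there as well, and summed macrophage and T cell markers were lower.

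The genes with the profile most like each of the 10 over the 12 libraries were found by the root mean square difference of log2(CPM + 0.5) after centring, which is a description without a test. The nearest to Il6 were the chemokine gene Cxcl2 (0.27), Plaur (0.32) and Gdf15 (0.38), and the nearest to Lif was Socs3 (0.58), followed by Il1f6 (0.59) and Glipr2 (0.66). Il11 was nearest to Vgf (0.33), Runx1 (0.41) and Osmr (0.43), and Osmr to Cd300lf (0.21), Litaf (0.24) and Anxa2 (0.25). Socs3 was nearest to Adamts4 (0.39), Sox9 (0.44) and Tnfrsf12a (0.53), and Stat3 to Efhd2 (0.11), Eif6 (0.13) and Masp1 (0.18). Il6ra was nearest to Srgap1 (0.17), Dlgap4 (0.17) and Smad3 (0.18), and Il4ra to Mrpl33 (0.09), Zyx (0.12) and Mapkapk2 (0.13). Il34 was nearest to Cpe (0.5), Ppm1j (0.53) and Eps8l3 (0.57), and Il6st, which varied least, was nearest to Myo18a (0.08), Hspa13 (0.09) and Ipo8 (0.1). The values are larger for genes that vary more.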

How the data were processed

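Kidney cortex RNA of mice was analysed in 12 libraries, 3 in each of 4 groups. The authors extracted total RNA, kept samples of high integrity, sequenced it on an Illumina platform and deposited 1 table of raw read counts per gene. The submitters' processing notes name HISAT2 2.0.4 and mm10, and the counting program, annotation and strand setting are not given in the sources used here. Groups follow the labels. No control title carries the number of the third Ctrl column, so its heading alone places it in Ctrl. The labels do not say that each library is a separate mouse, so p-values measure the spread between libraries, which may be technical. The 10 genes and all gene lists were chosen with earlier results of these data known.

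Counts were filtered with filterByExpr, scaled by TMM and tested with the quasi-likelihood test of edgeR 4.0.16 (R 4.3.3) for each pair of groups separately, and on all 12 libraries for the interaction. Calls are Benjamini-Hochberg adjusted p-values under 0.05 over all tested genes. Levels are CPM from TMM over 12 libraries. Gene spans, exon lengths and symbols come from GENCODE M21. Named genes are the 10 genes, up to 4 called genes with the largest change per direction, list and comparison, and the 3 nearest profiles of each. Further genes and interaction values in the text were chosen after their values were seen. A gene at 0 in a group was given a bound from a floor of 3 counts over the group. Exact two-sided permutation tests used SciPy 1.17.1 on log2(CPM + 0.5). Alternatives were DESeq2 1.42.0, total counts, no filter, a minimum of 10 counts per library, 1 fit to 12 libraries, sex as a covariate, a replicate block and leaving out each library. List counts without Ctrl libraries 1, 2 or 3 or Ctrl+I/R library 4 were chosen after seeing the data. The tests were tried on simulated data. Intervals cover counting error only. Some genes of the lists are counted but not reported here by name.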

Additional observations from a re-analysis of the deposited data

Results flagged for a closer look

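The effect of I/R differed between genotypes for 4 of the 10 genes (interaction term of edgeR's quasi-likelihood test, all 12 libraries, Benjamini-Hochberg adjustment). Of 16168 tested genes, 30.6% were called, and nothing particular to the 10 genes is read from this count. The log2 change with I/R in PT-KO minus that in Ctrl was 1.61 for Il6ra (adjusted p = 0.00176), 1.03 for Stat3 (adjusted p = 0.00548), 0.88 for Il4ra (adjusted p = 0.0187) and -0.57 for Il6st (adjusted p = 0.0212). For Il6ra, mean levels were 6.15 CPM in Ctrl and 6.4 CPM in Ctrl+I/R, and 4.33 CPM in PT-KO and 13.6 CPM in PT-KO+I/R. Over all alternatives the values lay between 1.26 and 1.76 for Il6ra, 0.83 and 1.17 for Stat3, 0.69 and 1.02 for Il4ra, and -0.67 and -0.44 for Il6st. Ctrl held both sexes and the other groups did not, and with sex as a covariate Il4ra and Il6st were no longer called.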

How the results depend on the processing

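With all libraries, 8 of the 10 genes were tested for I/R in controls, 7 between the uninjured groups and 10 in the other comparisons. Leaving out 1 library at a time gave 2 to 8 calls for I/R in controls (6 with all libraries; 379 to 4061 over all genes), 9 to 10 for I/R in PT-KO (10; 9111 to 10262), 4 to 7 between the injured groups (4; 4918 to 7509), 0 to 2 between the uninjured groups (0; 0 to 1930) and 3 to 4 for the interaction (4; 3622 to 5509). Without I/R, the fit without a low-count filter called 1 gene, Il34, with 388 calls over all genes. With sex as a covariate the interaction called 2 genes. Replicate numbers did not pair the samples: 12 same-numbered pairs had a median residual correlation of -0.025 (range -0.217 to 0.235), against 0.008 for 33 other pairs. The fit with the replicate number as a block called 2 genes between the injured groups (Il6ra and Il4ra lost, adjusted p 0.0683 and 0.0639) and 1 without I/R (Il34), with 1683 and 1378 calls over all genes, and 6, 9 and 3 genes for I/R in controls, I/R in PT-KO and the interaction. With DESeq2, total counts and 1 fit to 12 libraries, the count for each comparison was within 1.5 times the main one.

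Signs turned in 14 fits, none of them of a called value. For Il6ra with I/R in controls leaving out Ctrl library 3 gave -0.08, Ctrl+I/R library 1 gave 0 and Ctrl+I/R library 2 gave -0.04 (highest with a library left out 0.22). Between the injured groups Lif was -0.06 with total counts, -0.29 when Ctrl+I/R library 4 and -0.27 when PT-KO+I/R library 4 was left out (highest with a library left out 1.07), and Il11 was -0.08 when Ctrl+I/R library 4 was left out (highest with a library left out 1.19). Without I/R, Osmr was 0.07 with sex as a covariate, and with total counts Stat3 was -0.03 and Il4ra -0.05. For the interaction, Il11 was -4.1 with sex as a covariate, when Ctrl rests on 1 library with 0 counts, and -0.36 without Ctrl library 1 (highest with a library left out 1.4), and Il34 was -0.14 with the block and -0.22 without Ctrl library 3 (highest with a library left out 0.81, and 1.28 with sex as a covariate). Other causes of these changes were not tested. List counts of 5 or fewer calls moved by over 1.5 times in several fits, mostly for I/R in controls, and the calls of STAT3 targets there were 10 to 18 higher. With 3 libraries a group and counts of Il6 and Il11 near 0 before injury, small differences were not detectable at this depth.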
